A study of Mus musculus with 8 samples.

Results

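The NF-kB transcription factor subunits and the proteins that restrain them were followed in RNA sequencing of mouse cortical bone, the compact tissue that forms the walls of bones. The 10 genes were taken by name from a deposited table of 55401 genes: the subunits Nfkb1, Nfkb2, Rel, Rela and Relb, the classical inhibitors Nfkbia, Nfkbib and Nfkbie, and the nuclear inhibitor-like proteins Nfkbiz and Bcl3. All 10 had a row, and all 10 passed the filter on low counts. Of the 8 C57BL/6J libraries, 4 came from Ripk4fl/fl mice (control, also called WT in the labels) and 4 from UbcCre/ERT2 Ripk4fl/fl mice (KO), so that both groups carried floxed Ripk4 and differed by the Cre transgene. UbcCre/ERT2 is a Cre recombinase driven by the broadly active ubiquitin C promoter and switched on by tamoxifen-like drugs, so recombination is not limited to bone cells. No drug treatment is stated in the labels, which give 4 weeks without saying whether that is an age. The study asks what Ripk4 does in bone, and RIPK4 is a receptor-interacting kinase known to activate NF-kB when overproduced in cultured cells.

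NF-kB proteins bind DNA as pairs of subunits. In resting cells the classical inhibitors hold these pairs in the cytoplasm, and inflammatory signals make the IKK kinases mark the inhibitors for destruction, which frees the pairs to enter the nucleus. Nfkbia, Nfkb2, Rel, Relb, Nfkbiz and Bcl3 are themselves genes that NF-kB can induce, so the pathway feeds back on its own components. In bone the pathway is known above all for osteoclast formation, which needs the cytokine RANKL, and in marrow for the activation of neutrophils and macrophages.

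The promoter of Nfkbia is shown because Nfkbia was the member whose change passed the test, and a kappa B site is the DNA sequence that NF-kB binds. RefSeq promoter windows of 300 bases, from 250 before to 50 after a transcript start, were found for 7 of the 10 members in build GRCm38.p6 (Bcl3, Nfkb2, Nfkbia, Nfkbib, Nfkbie, Rel and Rela). The general kappa B consensus was searched on both strands, and matches that overlap each other were kept. The Nfkbia window lies at chr12:55492598-55492897 on the minus strand, and capitals mark its 1 match.
Nfkbia promoter: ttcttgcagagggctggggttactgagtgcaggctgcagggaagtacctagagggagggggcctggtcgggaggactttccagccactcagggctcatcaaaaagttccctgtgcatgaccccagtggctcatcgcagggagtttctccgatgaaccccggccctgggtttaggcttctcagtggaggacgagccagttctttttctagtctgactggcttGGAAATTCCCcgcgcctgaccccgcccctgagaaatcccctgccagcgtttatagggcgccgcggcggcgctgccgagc
A match was present for 5 of the 7 members, Bcl3, Nfkb2, Nfkbia, Nfkbie and Rel, and for 9.55% of the 27025 genes with a window. Of the 30 NF-kB target genes listed below, 22 had a window and 10 had a match. The sites of the other members, and those of Cxcl2, Il6 and Ier3, are printed with 10 flanking bases on each side, the match in capitals. These 3 are the genes with a window among 5 target genes that stood high in the library KO 4, and Csf1, which stood low there, had a match too.
Nfkb2 site at chr19:46304688-46304717: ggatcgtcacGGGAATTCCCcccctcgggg
Nfkb2 site at chr19:46305695-46305724: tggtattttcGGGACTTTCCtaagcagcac
Rel site at chr11:23771042-23771071: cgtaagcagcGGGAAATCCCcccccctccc
Bcl3 site at chr7:19822734-19822763: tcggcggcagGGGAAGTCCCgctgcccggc
Nfkbie site at chr17:45555584-45555613: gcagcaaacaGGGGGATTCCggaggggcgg
Cxcl2 site at chr5:90903792-90903821: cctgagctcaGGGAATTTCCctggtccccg
Il6 site at chr5:30013060-30013089: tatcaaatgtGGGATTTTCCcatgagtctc
Ier3 site at chr17:35821611-35821640: tgcgaagggcGGAGTTCCCCccggcccggc
Each run reads 5′ to 3′ along the strand of its gene, minus for Rel and Bcl3 and plus for the rest, and the coordinates span the printed bases. The first Nfkb2 site and the sites of Rel and Bcl3 are symmetric enough to match on both strands. Nfkb2, Rel and Cxcl2 had further matches that are not printed. Some of these overlap a printed match, so part of them stands in small letters. A match describes these letters only and was not tied to binding.

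The libraries held 61092688 to 66774693 estimated counts each. Ripk4 itself was at or near the limit of detection, with 10, 4, 0 and 4 counts in the control libraries 1 to 4, and 0, 12, 0 and 0 in the KO libraries 1 to 4, so the targeted gene does not check the labels. No osteoblast or osteocyte marker was at 0 in all libraries, and blood cell transcripts were abundant in every library. Transcripts of the mitochondrial genome took 16.1% of counts in control 3 and 11.7% in control 4, against 5.56% to 9.21% in the other 6, and skeletal muscle markers were also highest in control 3 and control 4. The library KO 4 stood apart from the other KO libraries in several members, as described below, so results are given with and without it.

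By level, expressed as FPKM (fragments scaled for transcript length and sequencing depth, so that genes can be compared), Nfkbia led the 10 members in both groups. In control bone the order of mean levels was Nfkbia at 42.8 FPKM, Rela at 19.9, Nfkbib at 9.51, Bcl3 at 9.17, Nfkb2 at 8.90, Nfkb1 at 8.5, Nfkbiz at 4.64, Nfkbie at 3.47, Relb at 3.45 and Rel at 2.58. The ranges of Nfkbia and Rela over the 4 control libraries did not touch each other or those of lower genes. In contrast, Nfkbib, Bcl3, Nfkb2 and Nfkb1 overlapped one another, as did Nfkbiz, Nfkbie and Relb. Nfkbiz also overlapped Bcl3, and Rel overlapped Nfkbie and Relb. In KO bone Bcl3 stood in the third place with 21.3 FPKM, a mean that KO 4 raised, and Rel and Relb exchanged the last places. Nfkbia made up 37.9% of the summed mean FPKM of the members in control and 47.5% in KO. Rela, which carries the main transcription-activating domain of the family, supplied 36.4% to 50.02% of the summed subunit FPKM among control libraries, against 49.8% to 54.8% among KO libraries.

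**Figure D1:**
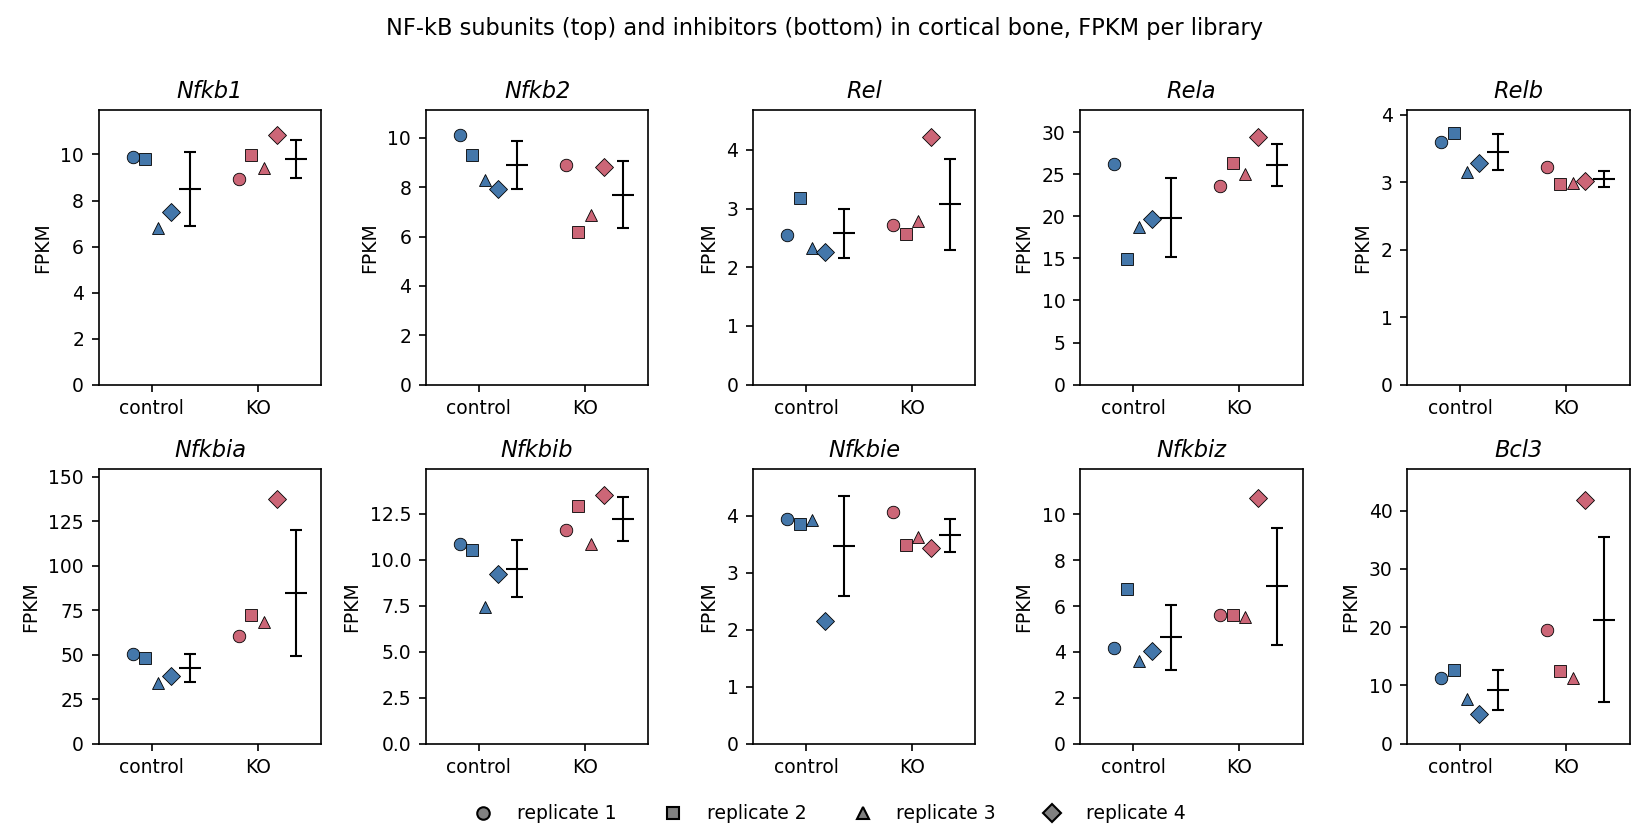
Level of each member in every library (y axis, FPKM from 0; circles, squares, triangles and diamonds are replicates 1 to 4, and the bars are the mean and SD of 4 libraries). For Nfkbia the KO libraries sit between 60.6 and 138 FPKM and the control libraries between 34.1 and 50.3, and KO 4 is the highest point for 7 of the 10 members.

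KO was compared with control by edgeR's quasi-likelihood test over 20152 genes, and a gene passed at a Benjamini-Hochberg adjusted p under 0.05. Of the 10 members 1 rose, Nfkbia, and 0 fell. Among all tested genes 5.31% rose and 5.03% fell, 10.3% together. At an unadjusted p under 0.05, Nfkbia, Rela, Nfkbib and Bcl3 were higher and 0 members were lower, where 14% of all tested genes were higher. DESeq2 called 3 members higher, Nfkbia, Nfkbib and Bcl3, and 0 lower, where it called 10.4% of its 18487 tested genes higher. The fitted change was above 0 for 8 of the 10 members, against 48.4% of tested genes, and the median log2 fold change was 0.35 for the members and -0.02 for all tested genes.

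Nfkbia encodes IkB alpha, an inhibitor that NF-kB induces quickly and that helps end the response. Its level was 50.3, 48.4, 34.1 and 38.2 FPKM in the control libraries 1 to 4, and 60.6, 72.5, 68.4 and 138 FPKM in the KO libraries 1 to 4. Every KO library was above every control library, and KO 4 was far above the other KO libraries. The group means were 42.8 ± 7.83 and 84.8 ± 35.6 FPKM (SD, n = 4 each), and the fitted log2 fold change was 1.04 ± 0.28 (SE), a 2.05-fold rise with a 95% interval from 1.33-fold to 3.17-fold (edgeR adjusted p = 0.0485). Without KO 4 the log2 fold change was 0.66 and the adjusted p was 0.0191. Leaving out any other single library except KO 1 ended the call, namely each of the 4 control libraries, KO 2 or KO 3, with an adjusted p of up to 0.133.

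Nfkbib encodes IkB beta, a slower inhibitor that holds some pairs for longer. Its level was 10.9, 10.5, 7.45 and 9.20 FPKM in the control libraries 1 to 4, and 11.6, 12.9, 10.9 and 13.5 FPKM in the KO libraries 1 to 4. The groups were separated only by the gap between control 1 at 10.859 and KO 3 at 10.862. The log2 fold change was 0.40 ± 0.13 and did not pass (edgeR adjusted p = 0.0804). Nfkbie, which encodes the third classical inhibitor, IkB epsilon, averaged 3.47 ± 0.877 FPKM in control and 3.65 ± 0.283 in KO (SD, n = 4 each). Its log2 fold change was 0.09 ± 0.21 with a 95% interval from -0.39 to 0.58 (edgeR adjusted p = 0.815). Groups without overlap, KO above control, were found for 2 of the 10 members, Nfkbia and Nfkbib, and for 9.21% of tested genes. In the opposite direction the counts were 0 members and 11.5% of tested genes.

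Bcl3 and Nfkbiz encode nuclear proteins related to the inhibitors that bind NF-kB on DNA and adjust which genes it switches on. Bcl3 was at 11.3, 12.6, 7.67 and 5.14 FPKM in the control libraries 1 to 4, and at 19.6, 12.5, 11.2 and 41.8 FPKM in the KO libraries 1 to 4. Its KO mean rested largely on KO 4, and KO 2 and KO 3 lay within the control range. The log2 fold change of Bcl3 was 1.27 ± 0.47 with all libraries (edgeR adjusted p = 0.118) and 0.67 without KO 4 (adjusted p = 0.234). Nfkbiz was at 4.17, 6.73, 3.60 and 4.04 FPKM in the control libraries 1 to 4, and at 5.63, 5.63, 5.51 and 10.7 FPKM in the KO libraries 1 to 4. The first 3 KO libraries lay inside the control range, and KO 4 was above all others. The log2 fold change of Nfkbiz was 0.61 ± 0.29 (edgeR adjusted p = 0.202) and 0.28 without KO 4 (adjusted p = 0.416).

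Among the subunits 0 of 5 passed in edgeR or DESeq2, and 1 had an unadjusted edgeR p under 0.05, Rela. Rela, the subunit of the best-known NF-kB pair, was at 26.2, 14.9, 18.7 and 19.7 FPKM in the control libraries 1 to 4, and at 23.6, 26.4, 25.0 and 29.5 FPKM in the KO libraries 1 to 4. Control 1 lay among the KO libraries and control 2 was the lowest of all. The log2 fold change of Rela was 0.43 ± 0.17 with a 95% interval from 0.04 to 0.81 (edgeR adjusted p = 0.14). Nfkb1, whose precursor is cut to the DNA-binding partner of Rela, averaged 8.5 ± 1.59 FPKM in control and 9.79 ± 0.820 in KO, a log2 fold change of 0.24 ± 0.13 (edgeR adjusted p = 0.262). Rel, a subunit prominent in blood cells, spanned 2.25 to 3.18 FPKM in control bone and 2.57 to 4.23 in KO bone, with KO 4 highest, and its log2 fold change of 0.29 ± 0.20 became 0.07 without KO 4 (edgeR adjusted p of 0.387 and 0.792).

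The pair that serves the slower, non-canonical branch of the pathway had fitted changes below 0, within their spread. Nfkb2, whose precursor both restrains and yields a subunit, spanned 7.93 to 10.1 FPKM in control bone and 6.20 to 8.89 in KO bone (log2 fold change -0.18 ± 0.15, 95% interval -0.52 to 0.17, edgeR adjusted p = 0.5). Relb, its partner, spanned 3.16 to 3.73 FPKM in control bone and 2.98 to 3.23 in KO bone (log2 fold change -0.14 ± 0.11, 95% interval -0.38 to 0.10, edgeR adjusted p = 0.421). Nfkb2 shares 531 exonic bases with the non-coding gene AC114539.1 and 299 with Psd, both on the opposite strand, Nfkbib shares 314 with Ccer2, and Bcl3 shares 161 with Gm16175. No source used here says whether counting used the strand, so reads of these genes cannot be told apart in the shared bases. Ccer2 averaged 0.5 counts per library and Gm16175 12.6, against 730.5 for AC114539.1 and 412 for Psd.

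**Figure D2:**
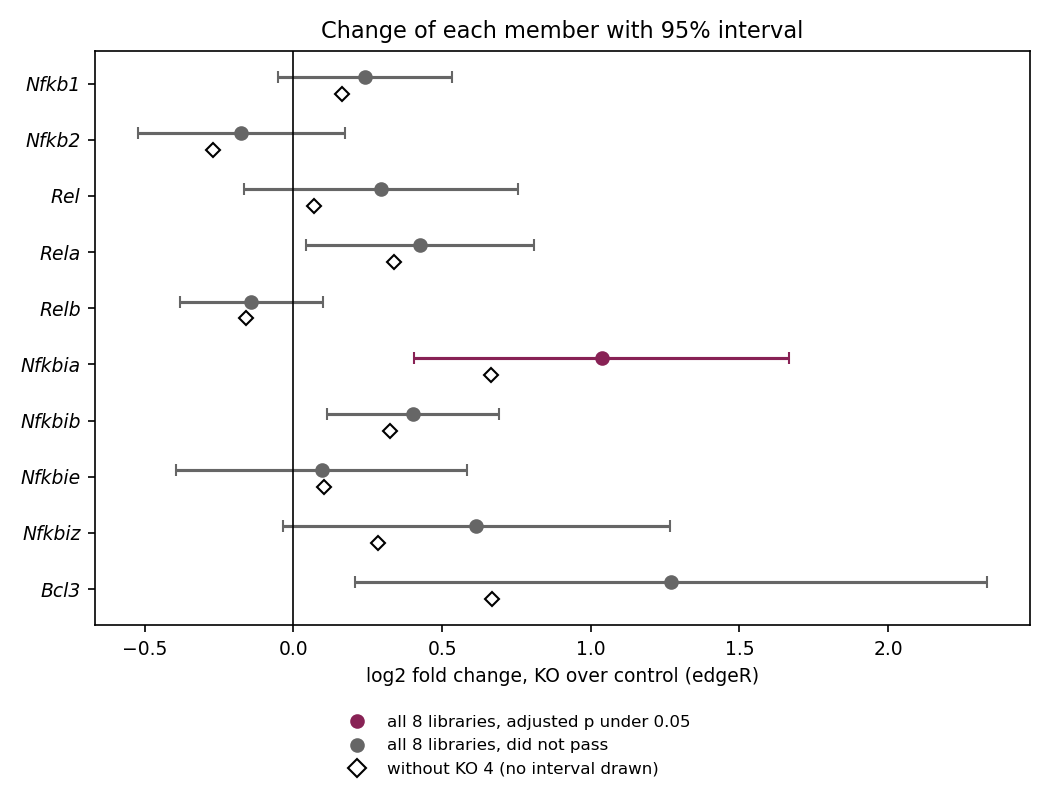
Log2 fold change of each member, KO over control (x axis), with the 95% interval of the edgeR fit; open diamonds give the value without KO 4. The interval of Nfkbia runs from 0.41 to 1.67, and the diamonds of Nfkbia, Bcl3, Nfkbiz and Rel lie to the left of the filled points.

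The ratio of inhibitor to subunit transcripts differed between the groups, as Nfkbia did. The summed FPKM of the 3 classical inhibitors divided by that of the 5 subunits was 1.24, 1.53, 1.16 and 1.22 in the control libraries 1 to 4, and 1.61, 1.85, 1.76 and 2.74 in the KO libraries 1 to 4. All 4 KO libraries were above all 4 control libraries, with control 2 closest to KO 1. Nfkbia alone supplied 75.0% to 77.3% of the inhibitor sum in control and 79.4% to 89.0% in KO. Summed subunit FPKM overlapped between the groups, spanning 39.3 to 52.3 in control bone and 47.0 to 56.4 in KO bone. These sums were formed over chosen members and were given no test.

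Summed neutrophil marker transcripts, like Nfkbia, were higher in every KO library than in any control library, though the KO libraries ranked differently by the neutrophil sum and by Nfkbia. Of 16 neutrophil markers 11 rose and 0 fell, beside 5.31% and 5.03% of all tested genes. Their summed FPKM was 31749 to 45391 among control libraries and 62526 to 74692 among KO libraries. Of the 16, 0 were at 0 in all libraries. In bulk tissue, more cells of a type and more RNA per cell cannot be told apart. Per 1000 FPKM of neutrophil markers, Nfkbia stood at 1.11, 1.13, 0.976 and 1.20 FPKM in the control libraries 1 to 4, and at 0.943, 1.11, 0.916 and 2.20 FPKM in the KO libraries 1 to 4. On that scale KO 1 to KO 3 did not exceed the control maximum of 1.20, and KO 4 did. Nfkb1, Nfkb2, Relb and Nfkbie had all their KO values under all their control values on the same scale, for example 0.0401 to 0.0503 FPKM against 0.0794 to 0.104 for Relb. The marker sum was higher in every KO library, so a gene whose own level is unchanged is lower in KO on this scale by arithmetic. How many of all tested genes did so was not counted, and no result about these members is drawn from it. With the neutrophil score as a covariate in edgeR, the log2 fold change of Nfkbia was 0.72 with an adjusted p of 0.998, and that fit called 0 genes of all those tested, with 818 at an unadjusted p under 0.05. In that fit 6 of the 10 members lay below 0, Nfkb1, Nfkb2, Rel, Relb, Nfkbie and Bcl3, and the median log2 fold change of all tested genes was -0.013. The score was itself apart between the groups, from -0.639 to -0.199 among control libraries and from 0.245 to 0.485 among KO libraries. The fit can therefore hardly separate genotype from score, and no conclusion is drawn from its signs.

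Markers of other cell types also differed between the groups, where 5.31% of all tested genes rose and 5.03% fell. Osteoblast markers had 6 of 11 falling and 0 rising, with summed FPKM of 4513 to 9567 in control bone and 1146 to 2524 in KO bone. Osteocyte markers had 3 of 8 falling and 0 rising. Endothelial markers had 3 of 8 falling and 0 rising, with summed FPKM of 98.2 to 127.9 in control bone and 68.2 to 91.7 in KO bone, and B cell markers had 3 of 11 falling and 0 rising. Of 13 monocyte and macrophage markers 0 rose and 1 fell, Mertk, and their summed FPKM overlapped, at 440 to 590 in control bone and 424 to 565 in KO bone. Skeletal muscle markers summed to 149 to 3914 FPKM in control bone and to 231 to 1703 in KO bone. With control 3 and control 4 left out the log2 fold change of Nfkbia was 0.87 with an edgeR adjusted p of 0.342. That fit called 56 of 21392 genes, against 2083 of 20152 with all libraries, so calls were lost in general. Without KO 4 as well, the log2 fold change of Nfkbia was 0.48 (edgeR adjusted p = 0.0942). The part of these cell types in the change of Nfkbia was not tested.

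**Figure D3:**
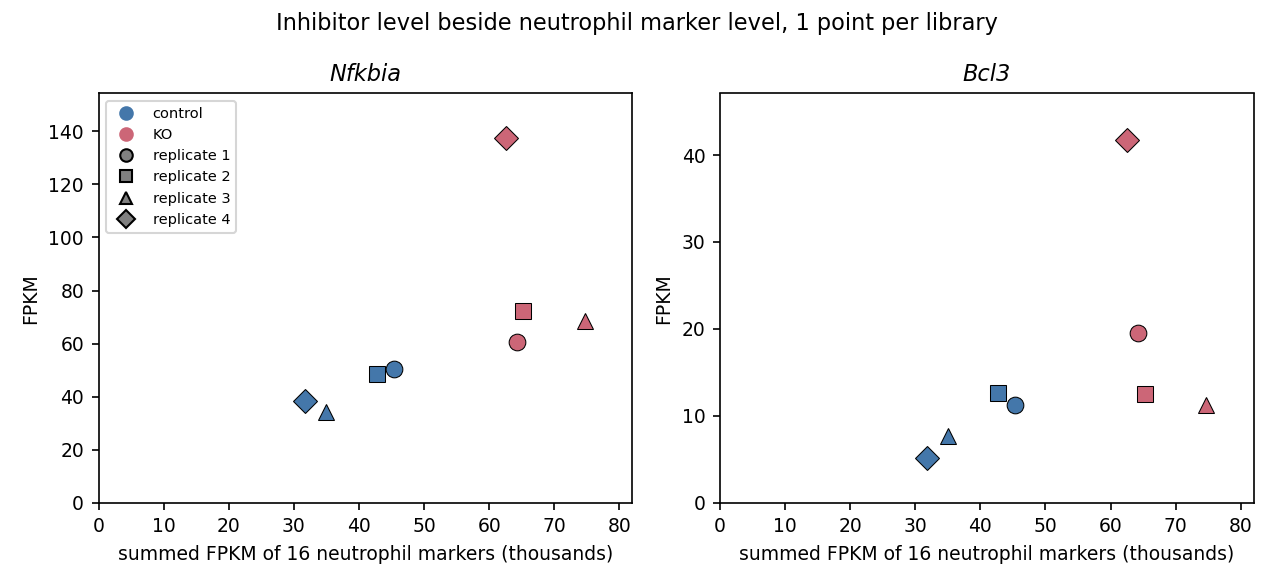
FPKM of Nfkbia and Bcl3 (y axes) beside the summed FPKM of the 16 neutrophil markers (x axes), 1 point per library, coloured by group and shaped by replicate. The KO libraries lie to the right, at 62526 or more, and KO 4 lies far above the other KO libraries in both panels at a marker sum that is the lowest of the KO group. Single markers differed from the sum, and KO 4 was the highest library for 3 of the 16, Cxcr2, Mmp8 and Retnlg.

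KO 4 carried high levels of Nfkbia, Bcl3 and Nfkbiz and of several inflammatory genes upstream and downstream of them. Among the subunits, Rel was at 1.57 times the mean of the other KO libraries in KO 4, Rela at 1.18 and Nfkb1 at 1.15. Nfkb2, at 1.20 times, and Relb were not highest there. KO 4 was the highest of the 8 libraries for 7 of the 10 members, Bcl3, Nfkb1, Nfkbia, Nfkbib, Nfkbiz, Rel and Rela, and for 18.5% of all tested genes. It was at least 2-fold above the mean of the other KO libraries for Nfkbia and Bcl3 and for 5.83% of tested genes. Nfkbiz was close to that, with 1.91 times the mean of the others, and Relb and Nfkbie were at 0.984 and 0.922 times. Nfkb2 was at 8.80 FPKM in KO 4, below 8.89 in KO 1. Among 28 tested NF-kB target genes, 5 were at least 2-fold above the other KO libraries, Ccl4, Cxcl2, Ier3, Il6 and Nos2, and 2 at least 2-fold below, Csf1 and Plau.

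Cxcl2, a chemokine that attracts neutrophils, was at 2.92, 10.5, 1.996 and 4.95 FPKM in the control libraries 1 to 4, and at 12.7, 11.1, 1.53 and 103 FPKM in the KO libraries 1 to 4. Nos2, the inducible nitric oxide synthase, was at 0.27 to 0.58 FPKM in control, at 0.745, 0.539 and 0.115 in KO 1 to 3 and at 11.6 in KO 4. Il6, an inflammatory cytokine, was at 0.16 to 0.53 FPKM in control, 0.21 to 0.39 in KO 1 to 3 and 2.55 in KO 4. These genes stood out in KO 4 alone, and 0 of the 3 passed the test between groups (edgeR adjusted p = 0.156 for Cxcl2, 0.168 for Nos2 and 0.282 for Il6). Cd14, a co-receptor for bacterial lipopolysaccharide, was at 3.49 to 8.38 FPKM in control, 5.02 to 7.95 in KO 1 to 3 and 147 in KO 4. Tnfsf11, which encodes RANKL, was at 38.4 FPKM in KO 4 and at 1.71 to 4.39 in the other 7 libraries. Birc3, an inhibitor of apoptosis that also limits the non-canonical branch, was at 24.7 FPKM in KO 4 and at 8.82 to 9.83 in the other KO libraries, which were themselves above the control range of 6.43 to 7.54.

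In marker genes, 5 of 8 osteocyte markers in KO 4 were at least 2-fold below the mean of the other KO libraries, against 1 of 8 in each of KO 1, KO 2 and KO 3 and 17.5% of tested genes in KO 4. Fgf23, on the same list, went the other way, at 22.6 FPKM in KO 4 and at 9.50, 3.28 and 1.61 in KO 1 to 3. Despite the high RANKL transcript in KO 4, 3 of 9 osteoclast markers, Acp5, Atp6v0d2 and Oscar, were at least 2-fold below the mean of the other KO libraries. On the same list 1 marker, Calcr, was at least 2-fold above it. All 12 skeletal muscle markers were at least 2-fold below that mean in KO 4, and likewise in KO 1. The neutrophil marker sum of KO 4, 62526 FPKM, was the lowest of the KO libraries, and S100a9 alone supplied 27363 of it. By the neutrophil score (the mean centred log2 level over markers without Lcn2) KO 4 stood at 0.347, between KO 2 at 0.245 and KO 1 at 0.425. KO 3 was the highest of the 8 libraries for 9 of the 16 neutrophil markers, and KO 4 for 3, Cxcr2, Mmp8 and Retnlg. In KO 4 the monocyte and macrophage marker sum was 541 FPKM, of which Cd14 supplied 147. The part of these markers in the level of the members was not tested.

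**Figure D4:**
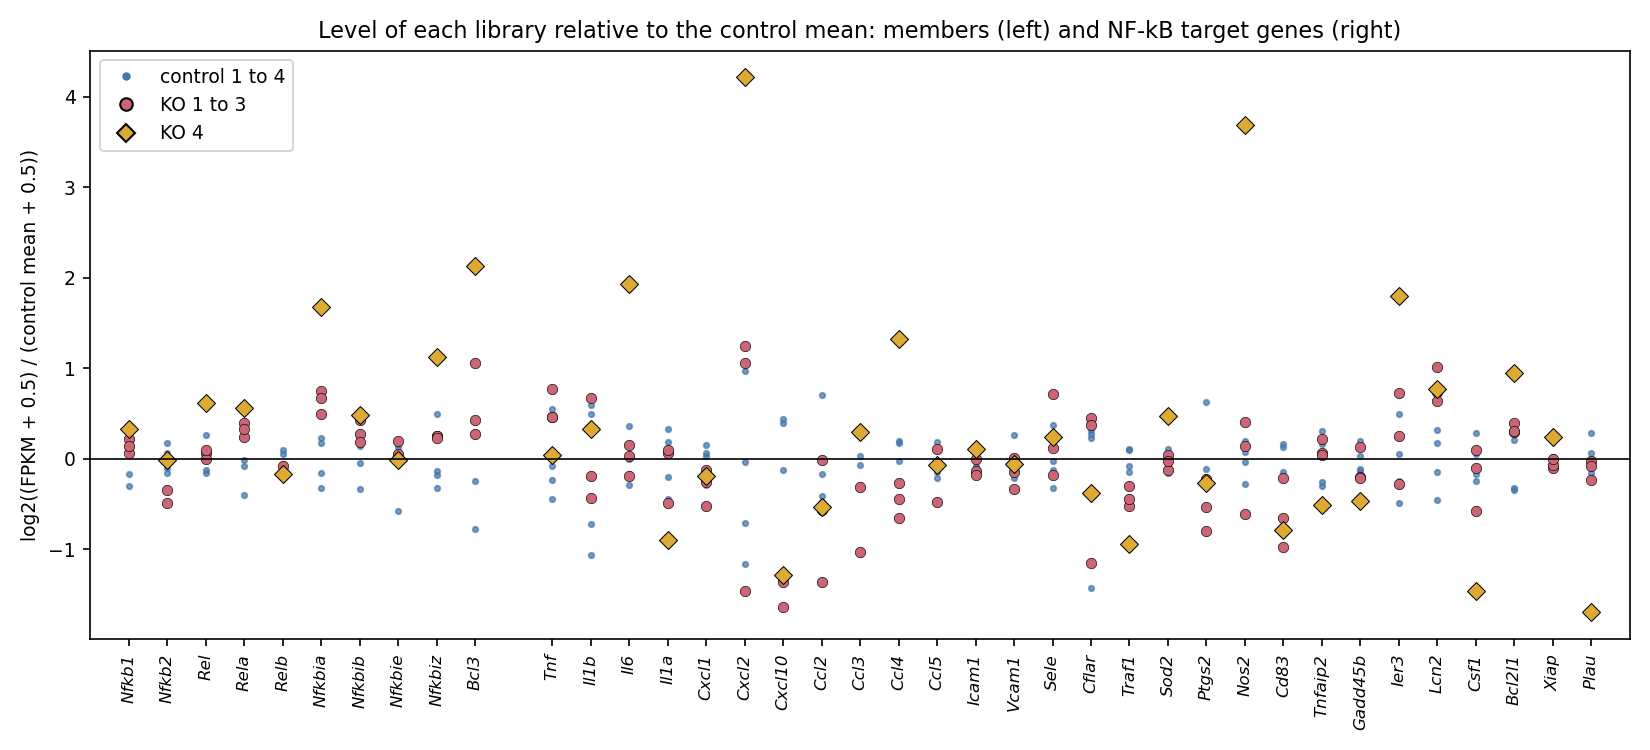
Level of each library relative to the control mean (y axis, log2 of FPKM + 0.5 over the control mean + 0.5) for the 10 members and the 28 tested NF-kB target genes. The yellow diamonds of KO 4 stand far above KO 1 to 3 for Nfkbia, Bcl3, Nfkbiz, Cxcl2, Nos2, Il6, Ccl4 and Ier3, and below them for Csf1 and Plau.

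Other genes of the pathway, from receptors and kinases to brakes and target genes, were compared in 5 lists of 96 genes in all, 94 of them tested. Of these 8 rose and 1 fell, with a median log2 fold change of 0.24. Among all tested genes 5.31% rose and 5.03% fell, shares that stand beside the counts of each list below. In the list of IKK kinases and their adaptors 3 of 20 rose and 0 fell, with a median of 0.33. Myd88, the adaptor of Toll-like and interleukin 1 receptors, was at 26.0 to 34.7 FPKM in control and at 42.2 to 60.2 in KO (log2 fold change 0.79 ± 0.15, edgeR adjusted p = 0.0173), and was lost only without control 4 (adjusted p = 0.051) when single libraries were left out. Irak4, a kinase that acts next to Myd88, rose by a log2 fold change of 0.61 ± 0.12 (adjusted p = 0.0192), and Tab2, which links ubiquitin chains to the kinase TAK1, by 0.48 ± 0.11 (adjusted p = 0.0354). Irak4 was lost without control 2, control 3 or control 4, and Tab2 when any single library other than KO 2 or KO 4 was left out. Chuk, the IKK alpha kinase, did not pass, with 0.33 ± 0.09 (adjusted p = 0.0586).

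Of 14 upstream receptors 3 rose and 0 fell, beside 5.31% and 5.03% of all tested genes, with a median log2 fold change of 0.38. Il17ra, a receptor of interleukin 17, was at 19.2 to 25.3 FPKM in control and at 35.8 to 47.5 in KO (log2 fold change 0.97 ± 0.14, edgeR adjusted p = 0.00909), and passed with any single library left out. Il18r1, a receptor of interleukin 18, rose by 0.93 ± 0.16 (adjusted p = 0.0146) and also passed with any single library left out. Tnfrsf1a, a receptor of tumour necrosis factor, rose by 0.46 ± 0.12 (adjusted p = 0.0477), and was lost when any single library other than KO 2 or KO 4 was left out. Il1rap, the shared chain of interleukin 1 receptors, had a log2 fold change of 1.36 ± 0.41 and did not pass (adjusted p = 0.0726), with 6.40 FPKM in KO 4 and no more than 2.51 in KO 1 to 3.

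In the list of the non-canonical branch 0 of 14 rose or fell in edgeR, and the median log2 fold change was 0.31. The smallest p there belonged to Ltbr, the lymphotoxin beta receptor (0.39 ± 0.11, edgeR adjusted p = 0.0526), Ltb, its ligand chain (0.52 ± 0.16, adjusted p = 0.076), Birc3 (0.995 ± 0.35, adjusted p = 0.101) and Tnfrsf11a, the receptor RANK (-0.69 ± 0.25, adjusted p = 0.117). At an unadjusted edgeR p under 0.05, 3 were higher and 2 lower, where 14% of all tested genes were higher and 14% lower. DESeq2 called 3 higher and 0 lower, where it called 10.4% of all its tested genes higher. Of 18 deubiquitinases and other brakes 1 rose and 0 fell, beside 5.31% and 5.03% of all tested genes, with a median of 0.28. The riser was N4bp1, a suppressor of NF-kB signalling (0.52 ± 0.13, adjusted p = 0.0429), which passed only without KO 2 when single libraries were left out. Nfkbil1, Tollip and Zc3h12a had log2 fold changes of 0.47, 0.32 and 0.56 and did not pass (adjusted p of 0.0682, 0.0707 and 0.121).

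The NF-kB target genes showed no shared direction. Of 28 tested, 1 rose and 1 fell, beside 5.31% and 5.03% of all tested genes. A fitted change above 0 was found for 14, and the median log2 fold change was -0.01. Lcn2, an iron-trapping protein of neutrophil granules that is also on the neutrophil marker list, rose from 880 ± 201 to 1530 ± 178 FPKM (0.83 ± 0.17, edgeR adjusted p = 0.0239) and was lost without control 2, control 3 or KO 3. Cxcl10, a chemokine also induced by interferon, was at 2.87, 4.51, 4.34 and 1.03 FPKM in the control libraries 1 to 4, and at 1.02, 0.93, 0.69 and 1.01 FPKM in the KO libraries 1 to 4, so control 4 nearly met the KO libraries. Its fall (-1.78 ± 0.44, adjusted p = 0.0392) was lost when any single library other than control 4 was left out. Traf1 and Cd83, a signalling adaptor and a surface protein of activated immune cells, had log2 fold changes of -0.76 and -0.72 and did not pass (adjusted p of 0.069 and 0.0759).

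**Figure D5:**
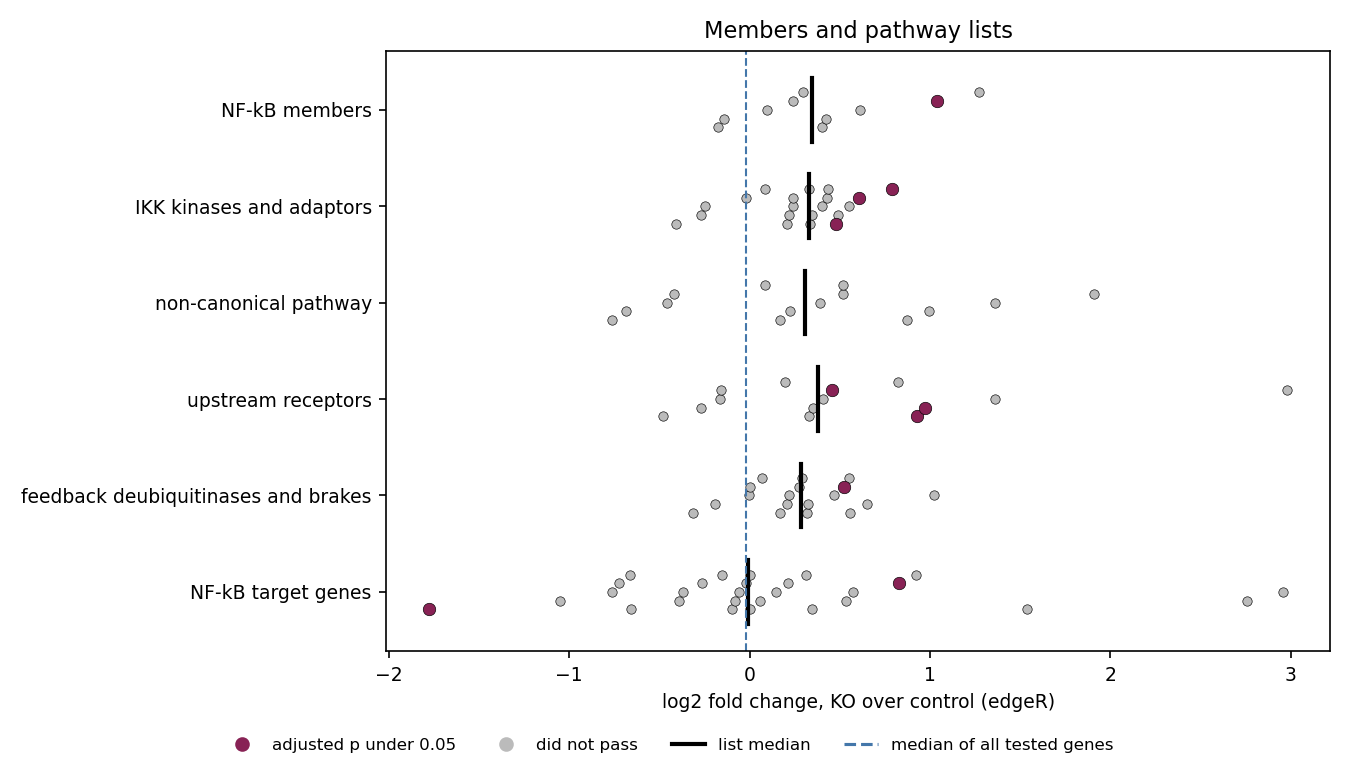
Log2 fold change, KO over control (x axis), of each tested gene in the members and the 5 pathway lists; filled dark points passed, black bars are list medians and the dashed line is the median of all tested genes. The medians of the members, the kinases, the receptors, the brakes and the non-canonical list lie between 0.28 and 0.38, and that of the target genes is at -0.01.

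The 3 genes whose pattern over the 8 libraries was closest to that of Nfkbia, by the root mean square difference of centred log2(FPKM + 0.5) among 13572 genes with a mean of at least 1 FPKM, were Cnbd2 at 0.117, Cntrl at 0.119 and Qsox1 at 0.124. Cntrl, a centriole protein, was at 4.92 to 6.46 FPKM in control, 8.68 to 9.68 in KO 1 to 3 and 16.5 in KO 4. Qsox1, an enzyme that forms disulphide bonds, was at 7.97 to 10.4 FPKM in control, 16.7 to 18.4 in KO 1 to 3 and 34.5 in KO 4. Cnbd2 was at 3.4 to 5.51 FPKM in control, 6.32 to 6.91 in KO 1 to 3 and 14.5 in KO 4, and did not pass (edgeR adjusted p = 0.0814). Each combined a step between the groups with a further height in KO 4, as Nfkbia did, which follows from how these 3 genes were chosen.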

How the data were processed

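The authors deposited 1 table that gives each gene's estimated count and FPKM in 8 libraries. Per the submitters' processing notes, HISAT2 2.0.4, StringTie 1.3.4d, DESeq2 and GRCm38 were used, in roles not stated there. The counting tool and strand setting are given in no source used here. Deposited estimated counts were whole numbers, so rounding changed none. The table holds 7854 values of 4 but 2724 of 3 and 1566 of 5, so the estimated counts may not be single fragments; divided by 4, they still gave Nfkbia as the 1 called member. FPKM in the deposited table is 0.0001 where the count is 0. Labels do not say that replicates are separate animals, so p-values measure the spread between these samples.

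Counts were tested with edgeR 4.0.16 in R 4.3.3 (quasi-likelihood, TMM, filterByExpr with a minimum count of 10, two-sided). Alternatives used DESeq2 1.42.0 and limma 3.58.1. The script was tested on simulated data. No library was a duplicate: chi-square per degree of freedom was at least 90.3 for every pair. Members and gene lists were chosen with earlier results of these data known. The named genes are the members, up to 4 genes per pathway list by smallest p and the 3 genes nearest to a called member; genes named for KO 4, and the wider list values given beside them, were chosen after their values were seen.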

Additional observations from a re-analysis of the deposited data

Results flagged for a closer look

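In a group of 4 libraries, a highest or lowest value was picked out when its gap to the nearest other value exceeded Dixon's 95% critical share of the group's range, which chance gives for about 1 in 20 groups. Of 60 groups examined 9 were picked out, and 5 of these were among the 20 groups of the members. KO 4 was the outlying library in 7 of the 9. In KO 4, Nfkbia was at 138 FPKM with the next KO library at 72.5, Nfkbiz at 10.7 with the next at 5.63, and Rel at 4.23 with the next at 2.78. Tab2 was at 31.2 FPKM in KO 4 with the next at 25.6, Chuk at 9.53 with the next at 8.69, and Birc3 at 24.7 with the next at 9.83. Ltb was lowest in KO 4 at 15.9 FPKM, with the next at 25.8. Relb was highest in KO 1 at 3.23 FPKM, with the next at 3.02. Nfkbie was lowest in control 4 at 2.15 FPKM, with the next at 3.86.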

How the results depend on the processing

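The 2083 genes called among all tested were 3965 with DESeq2, 56 with a replicate block, 56 without control 3 and control 4, 0 with the neutrophil score as a covariate, and 223 without control 3, control 4 and KO 4, an omission chosen after seeing the data; leaving out 1 library gave 769 to 2230. The count of 1 member called higher became 3 with DESeq2 and 0 with library size alone, no filter on low counts, limma on log2(FPKM + 0.5), on log2(FPKM + 0.1) or on log2(FPKM + 1), a replicate block, a muscle or neutrophil score as a covariate, or without control 3 and control 4 with or without KO 4; leaving out 1 library gave 0 to 1. Members called lower were 0 in every fit run. The 8 pathway genes called higher became 19 with DESeq2, 5 with no filter or the muscle score, and 0 with a replicate block, the neutrophil score, or without control 3 and control 4 with or without KO 4; leaving out 1 library gave 3 to 11. The 1 pathway gene called lower became 3 with DESeq2 and 0 with no filter, limma, a replicate block, either score, or without control 3 and control 4 with or without KO 4; leaving out 1 library gave 0 to 1. With the neutrophil score, which was itself apart between the groups, the log2 fold changes of 9 genes changed sign without passing: N4bp1 to -0.069, Lcn2 to -0.35, Nfkb1 to -0.24, Rel to -0.10, Nfkbie to -1.03, Bcl3 to -0.19, Ltbr to -0.12, Ltb to -0.0098 and Zc3h12a to -0.12. Nfkbie ran from -0.087 to 0.232 with 1 library left out and was -0.022 without control 3 and control 4; without those and KO 4, Nfkb1 was -0.023, Rel -0.050 and Nfkbie -0.024. The cause was not tested.

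The labels do not say whether replicate numbers pair libraries across the groups. Deviations from the group means correlated at 0.106, -0.172, 0.092 and -0.055 in same-numbered pairs 1 to 4, and not every library matched best with its own number. These correlations cannot settle whether the samples were paired.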

Other observations

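Outside the lists, KO 4 also held high levels of genes known from acute inflammation and stress. These genes were chosen after their values were seen, from the 20 with the highest ratio of KO 4 to the mean of KO 1 to 3 among 11482 protein-coding genes with a mean of at least 1 FPKM. Saa3, an acute phase protein, was at 97.9 FPKM in KO 4 and at 0.636, 1.04 and 0.635 in KO 1 to 3, the highest ratio of all. Mt2, a metallothionein, was at 719 FPKM in KO 4 and at 20.9 to 68.0 in KO 1 to 3. Adamts4 and Adamts1, proteases of matrix proteoglycans, were at 23.3 and 36.9 FPKM in KO 4 and at no more than 1.42 and 3.78 in KO 1 to 3. Il1r2, a decoy receptor that binds interleukin 1, was at 544 FPKM in KO 4 and at 54.8 to 61.5 in KO 1 to 3. Nos2, Cd14, Tnfsf11 and Cxcl2, which are on the lists and described above, were also among these 20. Csf3, which encodes the neutrophil growth factor G-CSF, was not among them. It is on the NF-kB target list, did not pass the filter on low counts and was also named after its values were seen. Csf3 had 103 counts in KO 4 and 0 in the other 7 libraries, so no fold is given. What set KO 4 apart was not tested.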
